A study of Arabidopsis thaliana with 36 samples.

Results

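The class B and class C heat shock factors of *Arabidopsis thaliana* were examined at the transcript level: *HSFB1* (AT4G36990, also called *TBF1*), *HSFB2A* (AT5G62020), *HSFB2B* (AT4G11660), *HSFB3* (AT2G41690), *HSFB4* (AT1G46264) and *HSFC1* (AT3G24520). The 6 genes were taken by identifier from the 36632 genes counted in every library, and 5 of them passed the filter on low counts that left 20847 genes for testing. The libraries came from whole seedlings of *hsfa2* (carrying the T-DNA allele *hsfa2-1*), *cdk8* (carrying a GABI-Kat T-DNA allele) and Col-0, the wild type in whose background both mutants were made. Each mutant was 1 insertion line. Seedlings received no heat stress (NHS), 1 h at 37 °C on day 5 only (P, priming), the same on day 7 only (T, triggering) or on both days (P+T), and all plates were harvested together on day 7. P seedlings had thus recovered from their heat shock for 2 days, while T and P+T seedlings received a heat shock on the day of harvest. With 3 biological replicates of each genotype and treatment there were 36 libraries in 12 groups. RNA of a whole seedling does not tell fewer cells of a type from less RNA per cell.

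Heat shock factors (HSFs) bind heat shock elements, which are alternating GAA and TTC units, through a conserved DNA-binding domain, and trimerise through an adjacent hydrophobic region. Class A members carry activation motifs and drive the induction of chaperone genes. Class B members lack these motifs, and most of them carry a short repressor motif near the C terminus and are known to dampen the heat shock response once it has started. *HSFB1* and *HSFB2B* are known to repress heat-induced HSF and chaperone genes while being needed for acquired thermotolerance, and *HSFB1* is also a translationally controlled regulator of the switch from growth to immunity. *HSFB4* is the *SCHIZORIZA* gene, required for cell fate separation in the root meristem. The class C factor *HSFC1* is known from chilled seedlings. *CDK8* is the kinase of the Mediator kinase module, which links transcription factors to RNA polymerase II, and *HSFA2* is a heat-induced class A factor.

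All 6 members lie on the forward strand with 2 exons each (TAIR10.1, the same nuclear chromosome sequences as the TAIR10 build of the counts). *HSFB1* spans positions 17440177 to 17442151 of chromosome 4, with a coding sequence of 855 bases and an annotated upstream open reading frame at 17440443 to 17440553, in its 5′ untranslated region. *HSFB2A* lies at 24915807 to 24917643 of chromosome 5 (900 coding bases) and *HSFB2B* at 7042354 to 7044708 of chromosome 4 (1134 coding bases). *HSFB3* lies at 17381647 to 17382851 of chromosome 2, *HSFB4* at 17224720 to 17226541 of chromosome 1 and *HSFC1* at 8941066 to 8942874 of chromosome 3.

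Because *HSFB1*, *HSFB2A* and *HSFB2B* were the members that heat raised, and since 2 of them differed between *cdk8* and Col-0, the sequence before their annotated starts is shown, 250 bases each, 5′ to 3′ on the forward strand (RefSeq, TAIR10.1). Bases that belong to a match of a paired heat shock element unit are in capitals.
*HSFB1*, chr4:17439927-17440176: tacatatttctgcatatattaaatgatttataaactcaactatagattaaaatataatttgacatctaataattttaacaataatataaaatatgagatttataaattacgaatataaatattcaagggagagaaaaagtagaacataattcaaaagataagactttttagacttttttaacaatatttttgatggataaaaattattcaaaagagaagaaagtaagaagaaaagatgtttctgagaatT
*HSFB2A*, chr5:24915557-24915806: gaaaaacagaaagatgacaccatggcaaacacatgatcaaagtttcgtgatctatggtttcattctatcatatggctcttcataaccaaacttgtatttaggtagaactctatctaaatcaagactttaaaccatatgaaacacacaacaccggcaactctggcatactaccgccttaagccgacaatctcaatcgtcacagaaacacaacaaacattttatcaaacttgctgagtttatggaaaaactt
*HSFB2B*, chr4:7042104-7042353: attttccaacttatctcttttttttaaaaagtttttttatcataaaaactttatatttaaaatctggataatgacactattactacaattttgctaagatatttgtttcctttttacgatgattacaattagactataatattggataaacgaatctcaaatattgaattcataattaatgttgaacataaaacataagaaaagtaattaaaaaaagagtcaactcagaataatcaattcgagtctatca
The only match was at the *HSFB1* start, where its first base is the last of the run above. The paired units GAANNTTC and TTCNNGAA, each its own reverse complement and able to overlap the other, and GAAGAAGAA on both strands (the TL1 element known to be bound by *HSFB1*) were searched from 250 bases before to 50 bases after the start of each member. TTCNNGAA was found once, in *HSFB1*, from position -1 to position 6 relative to the start, and the other members had no match to any of the motifs. Of 36630 promoters of this length, 9.42% held TTCNNGAA, 11.44% held GAANNTTC and 6.17% held GAAGAAGAA. In the 1000 bases before the start, a window added after the shorter one had given 1 match, TTCNNGAA was also found 345 bases upstream of *HSFB1*, 506 bases upstream of *HSFB2A* and 906 bases upstream of *HSFB4*, and neither GAANNTTC nor GAAGAAGAA was found in any member. TTCNNGAA was in 30.91% of all promoters of that length. The sites of the 2 genes that differed between *cdk8* and Col-0 are shown as 30-base stretches with the match in capitals, and both *HSFB1* sites read TTCTAGAA.
*HSFB1* at the start, chr4:17440166-17440195: ttctgagaatTTCTAGAAacagcatccgtt
*HSFB1* upstream, chr4:17439821-17439850: attttaaaactTTCTAGAAaaacacaagta
*HSFB2A* upstream, chr5:24915290-24915319: atatagatataTTCACGAAactgtaagacc
A match is a description of these letters and not a measured binding site.

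Each library held 29409330 to 31224343 read pairs assigned to a gene. Levels are given as CPM, counts relative to the library total after scaling by the trimmed mean of M-values (TMM), which sets the typical gene equal between libraries. The TMM factors were 0.818 to 0.930 in *cdk8* and 0.694 to 0.784 in *hsfa2* and Col-0 after heat on day 7, and 1.24 to 1.35 in all other libraries. *CDK8* had 104 to 222 counts in *cdk8* libraries and 423 to 1558 in the libraries of the other genotypes, and *HSFA2* had 27288 to 35557 counts in *hsfa2* at T, against 139576 to 148435 in Col-0 at T, so *HSFA2* transcript remained in *hsfa2*. Marker genes of root tissue (6 of 6) and of green tissue (5 of 5) were detected in every group. A gene was called when its adjusted p-value (edgeR quasi-likelihood test, Benjamini-Hochberg over 20847 genes) was under 0.05 and its change was more than 2-fold, and "rose", "fell", "higher" and "lower" mark an adjusted p-value under 0.05. The labels do not say how the replicates of a group were grown apart, so p-values measure the spread between these libraries.

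Heat shock on day 7 raised *HSFB1*, *HSFB2A* and *HSFB2B* strongly in all 3 genotypes, and *HSFB3* was at the edge of detection. At T, *HSFB4* stayed near its unstressed level with TMM scaling (below it by library size alone). At P+T it was higher than at P with TMM scaling but not by library size alone. At T against NHS, 3 of the 5 members tested were called up in *hsfa2*, in *cdk8* and in Col-0. Over all genes tested, 8.97% were called up in *hsfa2*, 7.53% in *cdk8* and 8.68% in Col-0. At P+T against P the same 3 members were called up in each genotype, where the share of all genes was 9.45% in *hsfa2*, 7.85% in *cdk8* and 9.73% in Col-0. At P against NHS no member was called in any genotype, against 0.0144% of genes in *hsfa2*, 0.024% in *cdk8* and 0.216% in Col-0. In edgeR, 2 members had an unadjusted p-value under 0.05 at P in *hsfa2*, 0 in *cdk8* and 2 in Col-0 (*HSFB1* and *HSFB2A* in both), and DESeq2 called 0 in each.

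**Figure D1:**
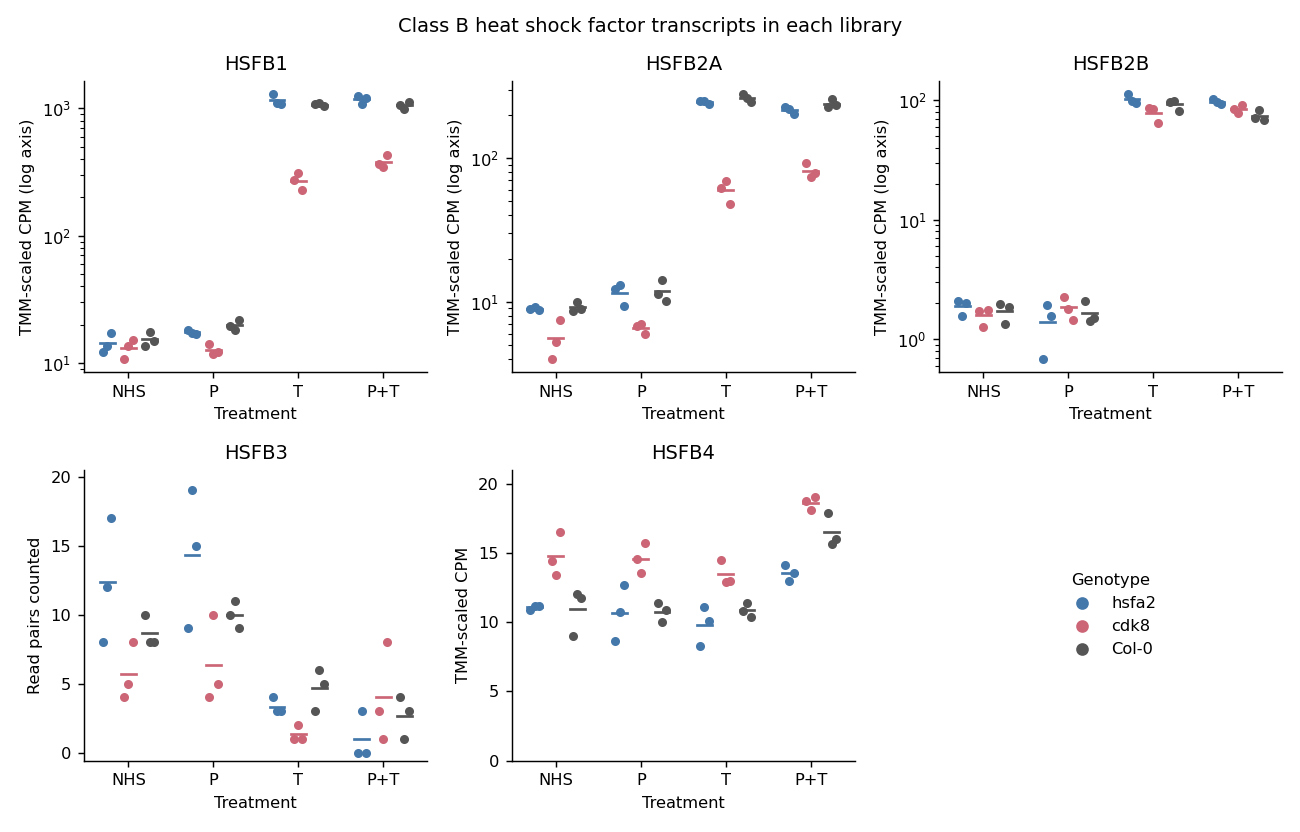
Level of each class B heat shock factor in each of the 36 libraries by treatment, with *hsfa2*, *cdk8* and Col-0 side by side (points, libraries; lines, means of 3). Levels are TMM-scaled CPM, on a log axis for *HSFB1*, *HSFB2A* and *HSFB2B*, and *HSFB3* is shown as read pairs counted. At T and P+T the *cdk8* libraries of *HSFB1* (229 to 433 CPM) sit below all Col-0 libraries (980.2 to 1112 CPM), and those of *HSFB2B* do not.

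*HSFB1*, the repressor that also controls the growth-to-defence switch, was the most abundant member after heat. At T it had 1287, 1091 and 1083 CPM in *hsfa2*, 274, 310.1 and 229 CPM in *cdk8*, and 1072, 1093 and 1041 CPM in Col-0. At NHS it had 12.1, 13.8 and 17.1 CPM in *hsfa2*, 10.8, 13.7 and 15.2 CPM in *cdk8*, and 13.7, 17.6 and 14.97 CPM in Col-0. The genotypes overlapped without stress, whereas after heat the *cdk8* libraries lay far below both other genotypes. The rise at T over NHS was 80.4-fold in *hsfa2* (log2FC 6.33, SE 0.17), 20.47-fold in *cdk8* (log2FC 4.36, SE 0.15) and 69.3-fold in Col-0 (log2FC 6.12, SE 0.16).

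At P+T, *HSFB1* had 1241, 1074 and 1207 CPM in *hsfa2*, 363, 343 and 433 CPM in *cdk8*, and 1062, 980.2 and 1112 CPM in Col-0. At P, after 2 days of recovery, it had 18.1, 17.4 and 16.8 CPM in *hsfa2*, 14.1, 11.7 and 12.2 CPM in *cdk8*, and 19.5, 18.3 and 21.9 CPM in Col-0. P seedlings were thus back near the unstressed level, and the rise at P+T over P had a log2FC of 6.07 in *hsfa2*, 4.91 in *cdk8* and 5.72 in Col-0. At P over NHS the log2FC was 0.28 (95% interval 0.02 to 0.55, adjusted p = 0.977) in *hsfa2*, -0.06 (-0.33 to 0.20, adjusted p = 1) in *cdk8* and 0.37 (0.10 to 0.63, adjusted p = 0.401) in Col-0. The second heat shock gave a level that could not be told from that of a first one in *hsfa2* (P+T over T, log2FC 0.03, 95% interval -0.23 to 0.28) and in Col-0 (-0.02, -0.28 to 0.23).

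*HSFB2A*, a close relative of *HSFB2B* with a repressor motif, followed *HSFB1* at a lower level. At T it had 252, 249 and 240.1 CPM in *hsfa2*, 62.3, 69.4 and 47.7 CPM in *cdk8*, and 279, 262 and 248 CPM in Col-0. At NHS it had 8.84, 9.23 and 8.79 CPM in *hsfa2*, 4.002, 5.29 and 7.45 CPM in *cdk8*, and 8.65, 10.02 and 8.90 CPM in Col-0. The *cdk8* libraries were the lowest at both treatments and did not overlap with those of Col-0. Its rise at T over NHS was 27.6-fold in *hsfa2* (log2FC 4.79, SE 0.17), 10.7-fold in *cdk8* (log2FC 3.42, SE 0.17) and 28.6-fold in Col-0 (log2FC 4.84, SE 0.17).

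At P+T, *HSFB2A* had 229, 220.1 and 204 CPM in *hsfa2*, 92.7, 74.0 and 79.5 CPM in *cdk8*, and 226, 258 and 234 CPM in Col-0. At P it had 12.2, 13.0 and 9.35 CPM in *hsfa2*, 6.75, 6.98 and 5.96 CPM in *cdk8*, and 11.3, 14.2 and 10.2 CPM in Col-0. The *cdk8* libraries were again the lowest at both treatments, and the rise at P+T over P had a log2FC of 4.24 in *hsfa2*, 3.64 in *cdk8* and 4.33 in Col-0. P+T over T gave a log2FC of -0.18 (95% interval -0.47 to 0.10) in *hsfa2* and -0.14 (-0.42 to 0.15) in Col-0.

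*HSFB2B*, the second repressor of heat-induced genes in the family, rose from a much lower level than *HSFB1*, in *cdk8* as well as in the other genotypes. At T it had 112, 98.1 and 94.5 CPM in *hsfa2*, 86.2, 84.4 and 64.4 CPM in *cdk8*, and 96.8, 98.1 and 81.7 CPM in Col-0. At NHS it had 2.10, 1.55 and 2.02 CPM in *hsfa2*, 1.73, 1.26 and 1.74 CPM in *cdk8*, and 1.95, 1.35 and 1.85 CPM in Col-0. The libraries of *cdk8* and Col-0 overlapped at both treatments. The rise was 53.7-fold in *hsfa2* (log2FC 5.75, SE 0.22), 49.6-fold in *cdk8* (log2FC 5.63, SE 0.22) and 53.6-fold in Col-0 (log2FC 5.75, SE 0.22).

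At P+T, *HSFB2B* had 102, 96.3 and 92.7 CPM in *hsfa2*, 84.1, 78.0 and 90.8 CPM in *cdk8*, and 71.6, 82.5 and 67.7 CPM in Col-0. At P it had 0.683, 1.93 and 1.57 CPM in *hsfa2*, 2.27, 1.80 and 1.46 CPM in *cdk8*, and 2.08, 1.41 and 1.501 CPM in Col-0. The low *hsfa2* library held 28 counts, against 79 and 59 in the other libraries of that group. The rise at P+T over P had a log2FC of 6.12 in *hsfa2*, 5.52 in *cdk8* and 5.47 in Col-0. At P+T the *hsfa2* libraries all lay above those of Col-0, but the difference missed the threshold (log2FC 0.39, 95% interval 0.06 to 0.72, adjusted p = 0.196). Of the 2267 exon bases of *HSFB2B*, 22.4% are shared with exons of genes on the reverse strand, one of which (AT4G11670) had 181 to 550 counts per library, so part of its own reads may have been set aside as ambiguous.

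*HSFB4*, the root stem cell factor, did not follow the other members. At T it had 8.29, 11.1 and 10.1 CPM in *hsfa2*, 14.5, 12.9 and 12.9 CPM in *cdk8*, and 10.8, 11.4 and 10.3 CPM in Col-0. At NHS it had 10.9, 11.2 and 11.1 CPM in *hsfa2*, 14.4, 13.4 and 16.5 CPM in *cdk8*, and 9.04, 12.1 and 11.7 CPM in Col-0. The libraries at T and NHS overlapped in each genotype, and the log2FC at T over NHS was -0.17 (95% interval -0.41 to 0.07) in *hsfa2*, -0.14 (-0.37 to 0.10) in *cdk8* and -0.01 (-0.25 to 0.23) in Col-0. This value depends on the scaling: by library size alone the log2FC was -0.96 in *hsfa2* (adjusted p = 1.87e-07), -0.72 in *cdk8* (adjusted p = 1.59e-05) and -0.79 in Col-0 (adjusted p = 4.42e-06), where the median of all genes was itself shifted by -0.781 in *hsfa2*, -0.591 in *cdk8* and -0.773 in Col-0.

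After 2 heat shocks, *HSFB4* stood higher than after 1 in every genotype, whereas *HSFB1* and *HSFB2A* passed the threshold in *cdk8* and *HSFB2B* in no genotype. At P+T it had 14.2, 13.0 and 13.5 CPM in *hsfa2*, 18.7, 18.1 and 19.1 CPM in *cdk8*, and 17.9, 15.6 and 16.0 CPM in Col-0. At P it had 8.62, 10.8 and 12.7 CPM in *hsfa2*, 14.5, 13.5 and 15.73 CPM in *cdk8*, and 11.4, 10.01 and 10.9 CPM in Col-0. The libraries at P+T lay above all of those at T in each genotype. Against P, the log2FC was 0.34 in *hsfa2* (adjusted p = 0.0145), 0.35 in *cdk8* (adjusted p = 0.0108) and 0.62 in Col-0 (adjusted p = 5.24e-05), but by library size alone it turned to -0.45, -0.28 and -0.14 in the same order. In *hsfa2* the adjusted p-value was 0.143 without P replicate 1 and 0.0521 without P+T replicate 1, and in *cdk8* it was 0.0555 without P replicate 2.

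*HSFB4* rose at P+T over T by a log2FC of 0.47 in *hsfa2* (SE 0.12, adjusted p = 0.0164), 0.47 in *cdk8* (SE 0.12, adjusted p = 0.00963) and 0.61 in Col-0 (SE 0.12, adjusted p = 0.000572). At an adjusted p-value under 0.05 alone, 1 of the 5 members rose at P+T over T in *hsfa2*, 3 in *cdk8* and 1 in Col-0, against 4.76% of all genes in *hsfa2*, 5.96% in *cdk8* and 9.67% in Col-0. By library size alone the *HSFB4* values at P+T over T were 0.45, 0.42 and 0.62 in the same order, all past the threshold, while with each genotype fitted alone the *hsfa2* value missed it (adjusted p = 0.074). In *hsfa2* the adjusted p-value became 0.0743 without P+T replicate 1, 0.0966 without T replicate 1 and 0.0571 without T replicate 3, and in *cdk8* it became 0.0555 without T replicate 3. The other 2 members that rose in *cdk8* were *HSFB1* (log2FC 0.49, SE 0.13, adjusted p = 0.0135) and *HSFB2A* (0.46, SE 0.15, adjusted p = 0.0447). With each genotype fitted alone neither passed (adjusted p = 0.0621 for *HSFB1* and 0.163 for *HSFB2A*), nor did *HSFB2A* by library size alone (0.107). For *HSFB1* the adjusted p-value became 0.129 without *cdk8* T replicate 3 and 0.109 without *cdk8* P+T replicate 3, and for *HSFB2A* it was 0.05 to 0.275 without any 1 of 14 libraries, among them *cdk8* T replicate 3 (0.275) and *cdk8* P+T replicate 1 (0.206). The difference between *cdk8* and Col-0 in P+T over T was not significant for *HSFB1* (log2FC 0.51, 95% interval 0.15 to 0.87, adjusted p = 0.306) or for *HSFB2A* (0.59, 0.19 to 1.00, adjusted p = 0.277).

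*HSFB4* is a root gene, so root markers were read beside it. The summed level of the 6 root markers was 53.1 to 74.8 CPM at P+T and 63.4 to 74.4 CPM at T in *hsfa2*, 56.9 to 74.4 and 57.9 to 81.8 CPM in *cdk8*, and 53.9 to 67.7 and 59.2 to 76.4 CPM in Col-0. The sums at P+T and T overlapped in each genotype. At NHS they were 78.6 to 91.0 CPM in *hsfa2*, 67.2 to 93.5 CPM in *cdk8* and 83.7 to 98.9 CPM in Col-0. The NHS sums lay above those at T in *hsfa2* and Col-0 and overlapped with them in *cdk8*. In Col-0, 2 of the 6 markers were called down at T over NHS (17.1% of all genes were). The part of root tissue in the *HSFB4* values was not tested. Of 8 genes of root meristem patterning, 6 were called down at T in Col-0 (17.1% of all genes were) and 1 was called up. *SCARECROW* (*SCR*), which acts in the same stem cell niche, fell to 6.12 to 8.46 CPM at T, against 37.9 to 55.4 CPM at NHS, and *WOX5*, a quiescent centre gene, had 3.81 to 5.24 CPM at T and 0.391 to 0.805 CPM at NHS.

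*HSFB3* gave 0 to 19 counts per library. In *hsfa2* it had 0, 3 and 0 counts at P+T, against 9, 19 and 15 at P, and this was the only comparison in which it was called (adjusted p = 0.000857, 16.2% of all genes were called down there). Over the 3 libraries together the ratio of P+T to P in *hsfa2*, scaled by TMM, was 0.126 (exact 95% counting interval 0.0251 to 0.395). In Col-0 the counts were 4, 1 and 3 at P+T and 10, 11 and 9 at P, a ratio of 0.456 (0.181 to 1.02). In *cdk8* they were 3, 1 and 8 at P+T and 4, 10 and 5 at P, a ratio of 0.991 (0.439 to 2.15). In *hsfa2* the interval lies below 1, in *cdk8* and Col-0 it includes 1, and all intervals cover counting error only. The highest *HSFB3* counts were in *hsfa2*, with 12 and 17 at NHS and 19 and 15 at P, and these carried it through the filter. With each genotype fitted alone, it passed the filter in *hsfa2* only. The call and the pooled ratio in *hsfa2* thus take as reference P libraries that let the gene in, and are not independent of the filter. A difference between genotypes in P+T over P was not tested.

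*HSFC1* had 0 counts in all 36 libraries, and this 0 does not measure its transcript. Of its 1725 exon bases, 1668 (96.7%) are also exon bases of AT3G24518, a non-coding gene on the reverse strand that had 0 to 4 counts per library, and only 57 bases are its own. Among the genes of the files, 1119 share 95% or more of their exon bases with exons of the opposite strand only. Of these, 1107 (98.93%) had 0 counts in all libraries, against 23.79% of 26543 genes that share none. Read pairs over such exons were thus assigned to neither gene, as counting without regard to strand does, and 5.62 to 7.10% of each library was ambiguous. No level, bound or comparison is given for *HSFC1*.

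Per kilobase of exon that no other gene shares, levels can be set beside each other. For *HSFB2B* they may be too low, since pairs that reach into a shared stretch may also have been set aside. At T in Col-0 the order was *HSFB1* with 599 CPM per kilobase (584 to 613), *HSFB2A* with 149.9 (141 to 159), *HSFB2B* with 52.4 (46.4 to 55.7), *HSFB4* with 6.82 (6.51 to 7.15) and *HSFB3* with 0.193 (0.117 to 0.242), with no overlap between neighbours. At NHS in Col-0 the order was *HSFB1* with 8.64 CPM per kilobase, *HSFB4* with 6.89 (5.69 to 7.59), *HSFB2A* with 5.24 (4.93 to 5.71), *HSFB2B* with 0.976 and *HSFB3* with 0.208, and *HSFB4* and *HSFB2A* overlapped. At T, *HSFB2A* and *HSFB2B* thus stood above *HSFB4*. At T in *cdk8*, *HSFB2B* with 44.5 (36.6 to 49.0) and *HSFB2A* with 34.1 (27.2 to 39.5) CPM per kilobase overlapped, below *HSFB1* with 151.9 (128 to 174).

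**Figure D2:**
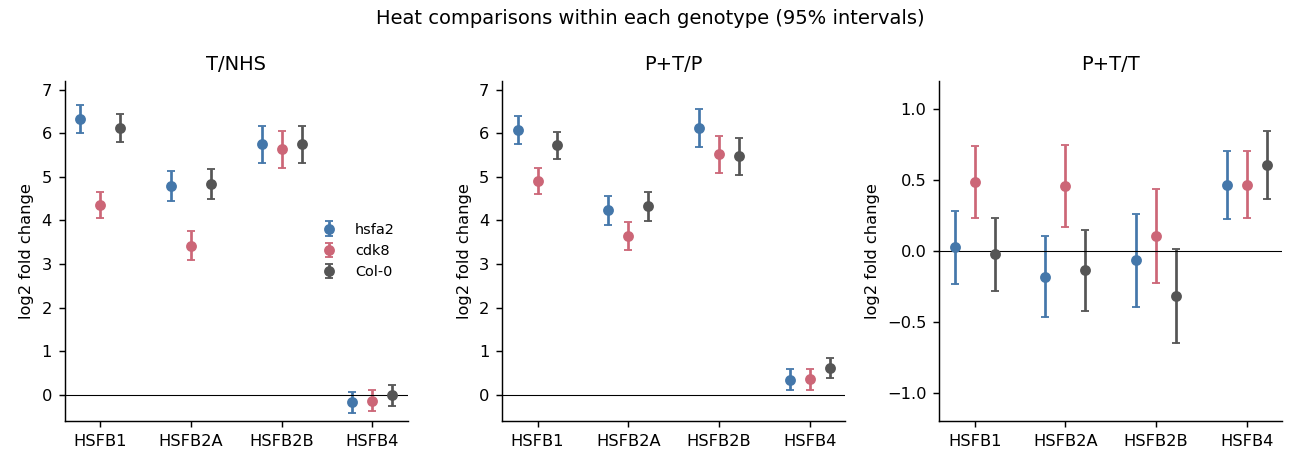
Fold changes (log2) of *HSFB1*, *HSFB2A*, *HSFB2B* and *HSFB4* in 3 heat comparisons within each genotype (points, edgeR estimates; bars, 95% intervals; 3 libraries per group). The T/NHS changes of *HSFB1* and *HSFB2A* are smaller in *cdk8* than in Col-0, and those of *HSFB2B* have overlapping intervals. *HSFB4* lies above 0 for P+T/T and, with the TMM scaling shown but not by library size alone, for P+T/P.

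The next question was whether either mutant altered the members. In *hsfa2*, no member was called against Col-0 at any treatment. The edgeR counts were 0 of 5 at NHS, P, T and P+T, against 0.0192%, 0.173%, 0.0528% and 1.71% of all genes in that order. DESeq2 called 0 at each as well. At an unadjusted p-value under 0.05 there were 0 members at NHS, P and T and 2 at P+T (*HSFB2B*, given above, and *HSFB4* with a log2FC of -0.28, 95% interval -0.52 to -0.05, adjusted p = 0.189). At T, *HSFB1* had a log2FC of 0.11 (95% interval -0.15 to 0.37) and *HSFB2A* of -0.09 (-0.38 to 0.20) in *hsfa2* relative to Col-0.

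In *cdk8*, *HSFB1* and *HSFB2A* were lower than in Col-0 after heat, by 2.77 to 4.40 times, and *HSFB2B* was not. At T, 2 of 5 members were called down in *cdk8*, against 5.56% of all genes, and at P+T the same 2, against 6% of all genes. *HSFB1* fell to 25.3% of Col-0 at T (log2FC -1.98, SE 0.14, adjusted p = 1.39e-12) and to 36.1% at P+T (log2FC -1.47, SE 0.13, adjusted p = 6.36e-10). *HSFB2A* fell by 2.14 on the log2 scale at T (SE 0.15, adjusted p = 3.79e-12) and by 1.54 at P+T (SE 0.15, adjusted p = 2.48e-09). All 3 *cdk8* libraries were below all 3 of Col-0 in each of these comparisons.

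*HSFB2B* in *cdk8* relative to Col-0 had a log2FC of -0.24 at T (95% interval -0.57 to 0.10, adjusted p = 0.35) and 0.19 at P+T (-0.14 to 0.52, adjusted p = 0.504). The sign at T is not fixed by these data, since scaling by library size alone gave 0.00. For *HSFB3* at T there were 1, 2 and 1 counts in *cdk8* and 3, 6 and 5 in Col-0, a scaled ratio of 0.242 (exact 95% counting interval 0.0580 to 0.771), with an adjusted p-value of 0.066.

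Smaller differences were present without heat on the day of harvest. At an adjusted p-value under 0.05 alone, 1 member was lower (4.32% of all genes were) and 1 higher (2.68%) in *cdk8* than in Col-0 at NHS, and 2 were lower (3.69%) and 1 higher (2.69%) at P. *HSFB2A* fell by 0.72 on the log2 scale at NHS (SE 0.16, adjusted p = 0.00417) and by 0.86 at P (SE 0.16, adjusted p = 0.000634). *HSFB1* was lower at P (log2FC -0.65, SE 0.14, adjusted p = 0.00236) but did not pass at NHS (-0.22, 95% interval -0.49 to 0.05, adjusted p = 0.414).

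*HSFB4* went the other way in *cdk8*. It was higher than in Col-0 at NHS (log2FC 0.43, SE 0.12, adjusted p = 0.0212) and at P (0.44, SE 0.12, adjusted p = 0.0199), and had a log2FC of 0.31 at T (adjusted p = 0.0687) and 0.17 at P+T (adjusted p = 0.362). The NHS value became 0.34 without *cdk8* replicate 3 (adjusted p = 0.116) and 0.31 without Col-0 replicate 1 (adjusted p = 0.181). At P the adjusted p-value became 0.0578 to 0.107 without *cdk8* replicate 1, *cdk8* replicate 3, Col-0 replicate 2 or Col-0 replicate 3. By library size alone the T and P+T values were 0.55 (adjusted p = 0.00213) and 0.35 (adjusted p = 0.0463), where the median of all genes shifted by 0.233 and 0.175. Without *hsfa2* P replicate 1, a library of neither group, the adjusted p-value at T was 0.0455. The summed root markers had 67.2 to 93.5 CPM in *cdk8* and 83.7 to 98.9 CPM in Col-0 at NHS, and 77.9 to 87.9 CPM in *cdk8* and 74.7 to 86.5 CPM in Col-0 at P, and overlapped at both. At an adjusted p-value under 0.05 alone, 1 of these 6 markers was lower in *cdk8* at NHS (4.32% of all genes were). At P, 1 was higher (2.69% of all genes were). The summed root patterning genes had 106 to 137 CPM in *cdk8* and 83.4 to 119 CPM in Col-0 at NHS, which overlapped, and 109 to 126 CPM in *cdk8* and 83.4 to 101 CPM in Col-0 at P, which did not and were, like *HSFB4*, higher in all *cdk8* libraries. None of the 8 was called in *cdk8* at NHS or P, and the part of root tissue in these *HSFB4* values was not tested.

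**Figure D3:**
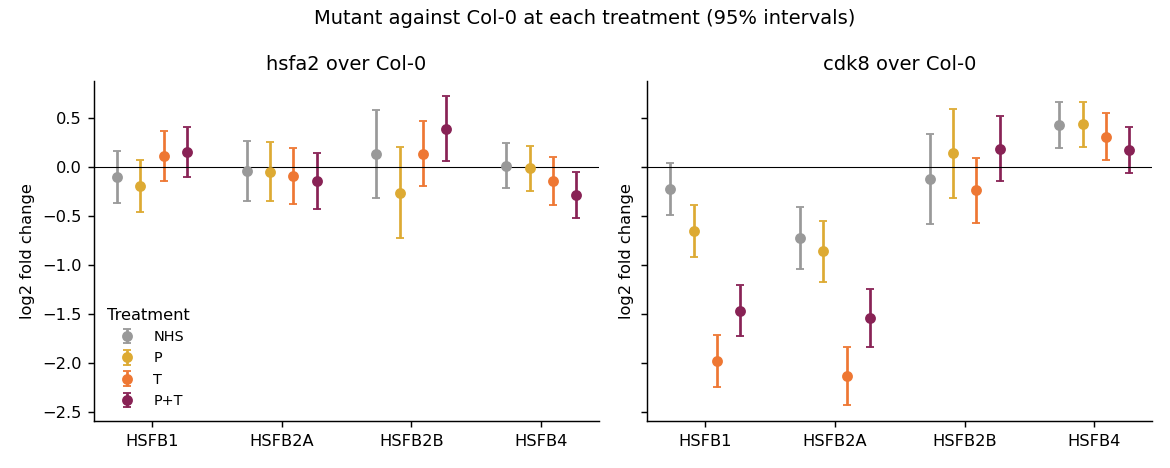
Fold changes (log2) of *HSFB1*, *HSFB2A*, *HSFB2B* and *HSFB4* in *hsfa2* over Col-0 (left) and *cdk8* over Col-0 (right) at NHS, P, T and P+T (points, edgeR estimates; bars, 95% intervals; 3 libraries per group). In *cdk8*, *HSFB1* reaches -1.98 and *HSFB2A* -2.14 at T, while *HSFB2B* is at -0.24. In *hsfa2* all estimates lie between -0.28 and 0.39.

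The weaker rise of *HSFB1* and *HSFB2A* in *cdk8* was tested as a difference between genotypes in the change at T over NHS. This interaction was lower in *cdk8* for 2 of 5 members, against 3.32% of all genes. It was -1.76 on the log2 scale for *HSFB1* (SE 0.19, adjusted p = 1.29e-07) and -1.41 for *HSFB2A* (SE 0.22, adjusted p = 5.2e-05). For *HSFB2B* it was -0.11 (95% interval -0.68 to 0.46, adjusted p = 0.913) and for *HSFB4* -0.12 (-0.46 to 0.21, adjusted p = 0.808). In *hsfa2* the same interaction was 0.21 for *HSFB1* (-0.16 to 0.58) and -0.05 for *HSFB2A* (-0.47 to 0.37), both with an adjusted p-value of 1.

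Ratios of counts within a library need no scaling between libraries. At T the ratio of *HSFB1* to *HSFB2B* counts was 3.46 in *cdk8* (geometric mean, log2 range 1.67 to 1.88) and 11.6 in Col-0 (log2 range 3.47 to 3.67). The ratio of *HSFB2A* to *HSFB2B*, whose unshared exon lengths are nearly equal (1754 and 1760 bases), was 0.760 in *cdk8* and 2.86 in Col-0 at T, and 0.970 in *cdk8* and 3.24 in Col-0 at P+T. *HSFB2B* thus gave more counts than *HSFB2A* in all 3 *cdk8* libraries at T and in none of Col-0 or *hsfa2*. The *cdk8* and Col-0 libraries did not overlap at T or P+T in either ratio. An exact two-sided permutation test of 3 against 3 libraries gave p = 0.1 for each, which is the smallest value it allows (0.185 after adjustment over 24 comparisons of ratios).

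In *hsfa2* the ratio of *HSFB2A* to *HSFB2B* was also below Col-0 without overlap at T (2.44 in *hsfa2*, 2.86 in Col-0) and at P+T (2.24 in *hsfa2*, 3.24 in Col-0). The same exact two-sided permutation test gave p = 0.1 in both cases. These differences are small beside those in *cdk8*, and neither gene was called in *hsfa2* by itself.

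**Figure D4:**
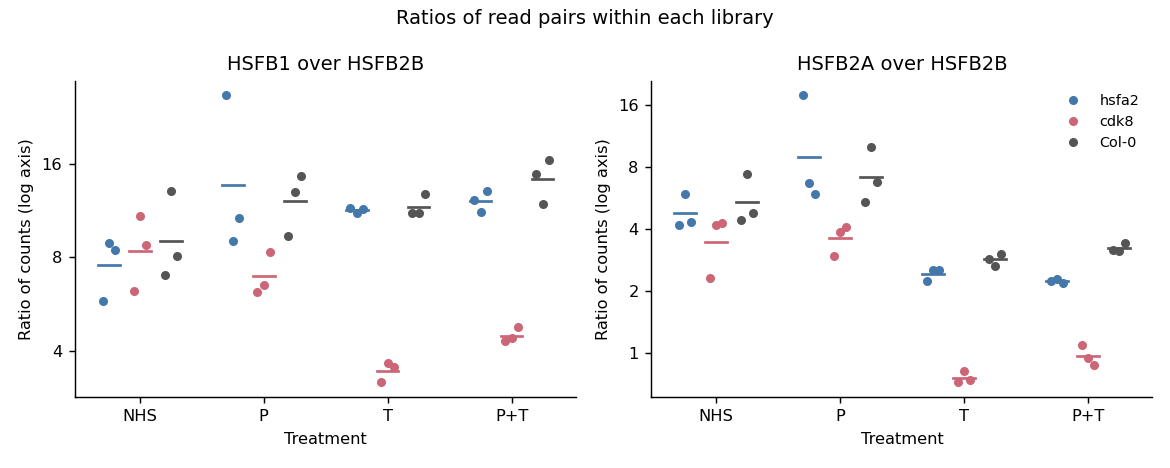
Ratio of *HSFB1* to *HSFB2B* counts (left) and of *HSFB2A* to *HSFB2B* counts (right) in each library, on log axes, by treatment with *hsfa2*, *cdk8* and Col-0 side by side (points, libraries; lines, geometric means of 3). At T the *HSFB1* ratio averages 3.46 in *cdk8* and 11.6 in Col-0, and the *HSFB2A* ratio 0.760 in *cdk8* and 2.86 in Col-0.

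The class A factors, the activators of the family, were read beside the class B members in the same fits. Of 15 class A genes, 14 were tested. At T over NHS in Col-0, 8 were called up (8.68% of all genes were) and 3 down (17.1% of all genes were). The 6 with the largest changes were *HSFA7B* (log2FC 13.59), *HSFA2* (11.93), *HSFA7A* (7.61), *HSFA6B* (3.54), *HSFA3* (3.34) and *HSFA8* (-2.07). The median log2FC was 1.48 over the 14, against -0.05 over all genes. By library size alone *HSFA4A*, named for this change after its values were seen, was not called (0.41, adjusted p = 0.0678). None of the 5 class B members tested was called down at T over NHS in Col-0. With 5 and 14 genes these counts do not show a difference between the classes. In *hsfa2*, no class A gene was called against Col-0 at T (0.0528% of all genes were). At P+T *HSFA1D* and *HSFA1E* were called down (1.42% of all genes were) and *HSFA7A* up (0.293%). *HSFA2*, the mutated gene, was not called at either treatment, though its *hsfa2* libraries lay below those of Col-0. It had 1166 to 1608 CPM in *hsfa2* and 6099 to 7141 CPM in Col-0 at T, and 804 to 970 and 3308 to 4061 CPM at P+T.

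In *cdk8* at T, 5 of the 14 class A genes were called down relative to Col-0 (5.56% of all genes were) and none up (2.1%). The median log2FC of the 14 was -0.59 (0.03 over all genes). Those called down were *HSFA6B* (log2FC -4.72), *HSFA3* (-3.04), *HSFA7B* (-2.60), *HSFA7A* (-2.49) and *HSFA2* (-1.95). *HSFA2* missed the threshold without any 1 of *cdk8* T replicates 1, 2 and 3 or Col-0 T replicates 2 and 3 (adjusted p = 0.05 to 0.087). *HSFA7A*, a heat-induced activator, had 279 to 310.5 CPM in *cdk8* at T and 1643 to 1775 CPM in Col-0. At P+T 5 were called down (6% of all genes were), *HSFA6B* (-3.61), *HSFA3* (-1.79), *HSFA7B* (-1.63), *HSFA1E* (-1.53) and *HSFA7A* (-1.10). The median of the 14 at P+T was -0.86 (0.02 over all genes). *HSFA7B* was not called there by DESeq2 (adjusted p = 0.16), nor *HSFA7A* by library size alone (-0.92). The T/NHS interaction was lower in *cdk8* for 4 of the 14 (*HSFA3*, *HSFA6B*, *HSFA7A* and *HSFA7B*), against 3.32% of all genes.

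At P, 2 of the 14 class A genes were called up in *cdk8* (1.16% of all genes were) and none down. They were *HSFA2*, with 15.74, 0.222 and 0.519 CPM in *cdk8* and 0.0750, 0.470 and 0.553 CPM in Col-0, and *HSFA7B*, with 3.07, 0.222 and 0.223 CPM in *cdk8* and 0.050, 0.157 and 0.105 CPM in Col-0. For both genes 1 *cdk8* library, replicate 1, was far above the others. Without it, the log2FC was 0.03 for *HSFA2* (adjusted p = 0.997) and 1.08 for *HSFA7B* (adjusted p = 0.68). The calls were also lost without Col-0 P replicate 1 (adjusted p = 0.0521 and 0.0731), and for *HSFA7B* without Col-0 P replicate 3 (0.0548).

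**Figure D5:**
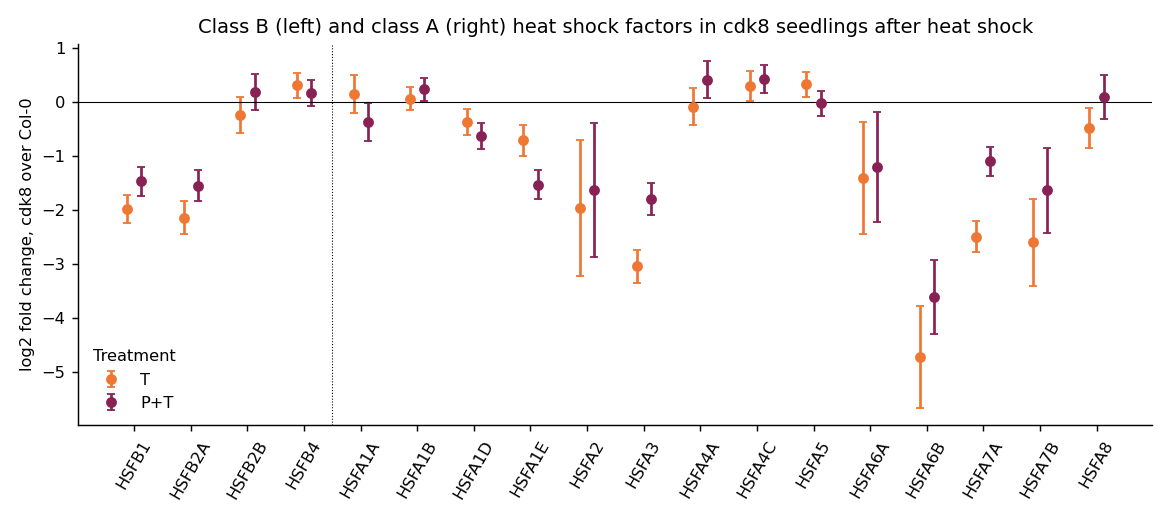
Fold change (log2) of 4 class B and 14 class A heat shock factors in *cdk8* over Col-0 at T and at P+T (points, edgeR estimates; bars, 95% intervals; 3 libraries per group). *HSFB1* and *HSFB2A* lie below -1 at both treatments, as do *HSFA2*, *HSFA3*, *HSFA6A*, *HSFA6B*, *HSFA7A* and *HSFA7B* (*HSFA6A* was called at neither, *HSFA2* at T alone), and *HSFB2B* and *HSFB4* lie between -0.24 and 0.31.

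Genes reported as repressed by *HSFB1* and *HSFB2B* were examined as a list of 6 (4 tested), of which *HSFA2*, *HSFA7A*, the small heat shock protein gene *HSP15.7* and the clock gene *PRR7* were called up at T in Col-0 (*PRR7* by 0.77 only, under the fold threshold, by library size alone). In *cdk8* at T, 3 of the 4 tested were called down (*HSFA2*, *HSFA7A* and *HSP15.7*) and none up, against 5.56% of all genes called down. The *HSFA2* call was lost without any 1 of the T libraries named above, and *HSFA2* and *HSFA7A* were also counted among the class A genes. At P, where *HSFB1* was also lower in *cdk8*, none was called down (1.4% of all genes were) and *HSFA2* was called up, a call lost without *cdk8* P replicate 1, where 1 of the 4 was called down. *HSP15.7* had 379 to 450.3 CPM in *cdk8* and 979 to 1031 CPM in Col-0 (log2FC -1.26, adjusted p = 0.00017). *PRR7* had 265 to 313 CPM in *cdk8* and 295 to 368 CPM in Col-0, and overlapped. At P+T 1 of the 4 was called down in *cdk8* (*HSFA7A*), against 6% of all genes, with none by library size alone (-0.92). The count was 2 in a few refits, among them those with the replicate block and without *cdk8* P replicate 1.

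Cold-induced transcription factors were read because *HSFC1* is studied with them in chilled seedlings. In *cdk8* at T, 7 of 8 were called down relative to Col-0, with a median log2FC of -2.28, against 5.56% of all genes called down and a median of 0.03 over them. The 6 with the largest changes were *CBF1* (-5.13), *ZAT12* (-3.65), *CBF2* (-3.57), *DEAR1* (-2.72), *CBF3* (-1.83) and *ZAT10* (-1.74). *CBF1* rested on 0 to 1 counts in *cdk8* and 5 to 24 in Col-0, so its fitted value is no bound. The seventh, *CZF1*, named after its values were seen, was not called by library size alone (-0.87), nor *CBF3* without *cdk8* T replicate 1 (adjusted p = 0.0974) or Col-0 T replicate 3 (adjusted p = 0.0528). At P+T 2 of the 8 were called down (6% of all genes were), *ZAT12* and *DEAR1*. *ZAT12*, a stress zinc finger factor, had 5.80 to 6.72 CPM in *cdk8* at T and 70.4 to 83.4 CPM in Col-0 (log2FC -3.65, SE 0.29, adjusted p = 3.31e-11). *CBF2* had 0.211 to 0.518 CPM in *cdk8* and 3.32 to 4.72 CPM in Col-0. Of 3 genes known from the *HSFB1* (*TBF1*) immune pathway, 1 was called up at T in Col-0 (8.68% of all genes were), the endoplasmic reticulum chaperone gene *BIP2*, with 741 to 946 CPM at T and 102 to 125 CPM at NHS. The others passed the adjusted p-value but not 2-fold, the chaperone gene *CRT3* upwards (log2FC 0.53) and the immune coactivator gene *NPR1* downwards (log2FC -0.52). By library size alone *CRT3* turned to -0.24 (adjusted p = 0.0382) and *NPR1* was called down (-1.29). *BIP2* had 775 to 942 CPM in *cdk8* at T and overlapped with Col-0, whereas *HSFB1* did not overlap. *BIP2* is nearly identical to *BIP1*, so its counts may cover only part of its reads.

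The genes whose levels ran most like each member over the 12 group means were named from 17846 genes by Pearson correlation of log2(CPM + 1), as a description only. For *HSFB1* these were AT3G03140, AT1G14205 and AT1G67365 (each 0.997), and for *HSFB2A* AT1G78070, AT5G24340 and *LARP6a* (each 0.995). For *HSFB2B* they were AT5G35320, the splicing factor gene *SR45a* and AT1G66080 (each 0.999). *HSFB4* had lower values, with AT3G04330 (0.931), AT5G45775 (0.929) and AT3G54390 (0.929). Among the members themselves, *HSFB1* and *HSFB2A* had 0.994, *HSFB1* and *HSFB2B* 0.978, and *HSFB1* and *HSFB4* 0.19. All 12 means come from the same libraries and the same scaling.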

How the data were processed

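The deposited values are raw counts of read pairs per gene in 36 files, which the authors obtained from oligo-dT selected mRNA by mapping to TAIR10 with STAR 2.7.10a (submitters' processing notes) and counting per gene. The strand setting is not given in the sources used here. Rows that name no gene (9.26 to 12.1% of a file) were left out of library sizes. The edgeR package (4.0.16, R 4.3.3) kept genes by filterByExpr (minimum count 10, total 15), scaled by TMM and ran the quasi-likelihood F-test on all 12 groups. A call meant adjusted p below 0.05 with |log2FC| over 1, and for interactions adjusted p alone. Standard errors are the log2FC over the square root of F. The members, gene lists and tests were chosen with earlier results of these data known. All 6 members are named, and of each list at most 6 genes past the threshold by absolute log2FC in a comparison, with any gene beyond these named as chosen after its values were seen.

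Alternatives were DESeq2 1.42.0, its size factors in edgeR, library size alone, keeping every gene with 1 read, keeping genes from a mean of 1 CPM, the replicate number as a block, each genotype alone and each library left out. Libraries with the same replicate number deviated together (all 3 correlations above 0.1) in 11 of 20 comparisons, and no source states a pairing. No 2 replicates were duplicates (36 within-group pairs, chi-square over degrees of freedom from 6.49 to 57.7). The fits were tested on simulated data. Coordinates and sequences are from RefSeq (TAIR10.1), read with Python 3.11.15. At this depth 1 CPM is about 30 counts.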

Additional observations from a re-analysis of the deposited data

Results flagged for a closer look

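The change at T over NHS differed between *cdk8* and Col-0 for *HSFB1*, by -1.76 on the log2 scale (edgeR interaction, SE 0.19, adjusted p = 1.29e-07). In 3 of 3 libraries at T the *cdk8* level (229 to 310.1 CPM) was below the lowest of Col-0 (1041 CPM).

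The same difference between *cdk8* and Col-0 was found for *HSFB2A*, at -1.41 (SE 0.22, adjusted p = 5.2e-05), with 47.7 to 69.4 CPM in *cdk8* and 248 to 279 CPM in Col-0 at T. With 3 libraries per group, single libraries were not searched for outliers.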

How the results depend on the processing

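For the 5 members tested, 120 results (each a gene in a comparison) were refitted under 7 settings and with each of 36 libraries left out. Of 5062 refitted values 5057 kept their side of the call threshold and 5, all *HSFB3*, were called only in the refit. No value called in the main fit or the refit changed sign, while 67 values called in neither did. Changes across an adjusted p-value of 0.05 alone are given with the results above. By library size alone *HSFB3* was called down at P+T over P in Col-0, at T over NHS in *hsfa2* and at T over NHS in *cdk8*, where the main count was 0. Leaving out single libraries gave 0 to 1 members called down at P+T over T in *hsfa2* (1 without P+T replicate 2, log2FC -5.25), and *HSFB3* at T in *cdk8* against Col-0 had an adjusted p-value of 0.0457 without the same library. With a mean CPM of at least 1, *HSFB3* was not tested and 0 members were called down at P+T over P in *hsfa2*. With the replicate block no call of a member changed, and at T in *cdk8* against Col-0 *HSFB1* had -1.98 and *HSFB2A* -2.14. Over all settings and omissions the *HSFB1* value there ran from -2.09 to -1.75 and that of *HSFB2A* from -2.26 to -1.90. *HSFB4* at P+T over P was 0.34 in *hsfa2*, 0.35 in *cdk8* and 0.62 in Col-0 with TMM, and -0.45, -0.28 and -0.14 by library size alone. Counts over all genes moved with the same scaling: at T over NHS in Col-0, 1809 genes were up and 3559 down with TMM and 946 and 8546 by library size, and at T in *cdk8* against Col-0, 438 and 1159 with TMM and 888 and 884 by library size. The cause was not tested. *HSFB3* is limited by depth, and *HSFC1* by overlap with AT3G24518.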
